A study of Mus musculus with 5 samples.

Results

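CD8 T cells were examined in single-cell RNA sequencing libraries from whole mouse lung. A cell was counted as a CD8 T cell when its barcode had over 700 and under 8000 genes detected, under 5% of counts from mitochondrial features, 1 or more counts of Cd3d, Cd3e or Cd3g together, 1 or more counts of Cd8a or Cd8b1 together, and 0 counts of Cd4, Cd79a and Ms4a1. In the 4 unsorted libraries 539 cells met this rule. There were 12707 cells in these libraries after the gene and mitochondrial limits, and 13200 with the sorted library. The cells were selected on measured values of these genes, so their levels describe the selection and are not a result.

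The study exposed neonatal C57BL/6J mice, under 12 h old, to over 95% oxygen (hyperoxia) or to air for 3 days and let them recover in air. Lungs were taken at postnatal day (pnd) 7 and at pnd60, in adulthood. The groups were air at pnd7, hyperoxia at pnd7, air at pnd60 and hyperoxia at pnd60, with 1 library each, and a further library of hyperoxia lung at pnd7 sorted for C12FDG, a fluorescent substrate of senescence-associated β-galactosidase. The sorted library pooled 3 mice. The unsorted libraries of both ages came from an earlier data set of the same laboratory, and the number of mice behind each unsorted library is not given in the sources used here. Each group held 1 library and no test of a condition was made. Every interval here is a 95% interval for counting error alone.

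CD8 T cells recognise peptides on class I MHC molecules through the T cell receptor, which signals through the CD3 chains, with CD8 as the co-receptor. Naive cells circulate through lymph nodes with the help of CCR7. After activation they can make granzymes, perforin, CCL5 and interferon gamma and can remain as memory cells in blood or in tissues such as the lung. In the mouse these cells leave the thymus mostly after birth, and neonatal T cells divide more than adult ones.

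The Cd3 and Cd8 genes of the rule lie at 2 places of the genome (mm10, positions from GENCODE M21). Cd8a lies on chromosome 6 at 71373427 to 71379173 and Cd8b1, which encodes the beta chain, beside it at 71322788 to 71337494. Cd3g, Cd3d and Cd3e lie together on chromosome 9, from 44969572 to 45009627. All 5 are protein-coding genes, and the deposited values count transcripts over each whole gene.

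There were 56 CD8 T cells in the air pnd7 library, 37 in the hyperoxia pnd7 library, 208 in the air pnd60 library and 238 in the hyperoxia pnd60 library. They held 466548, 333296, 645916 and 707210 counts (unique molecular identifiers, UMIs). The median cell had 6798 counts in air and 5353 in hyperoxia at pnd7, against 2700.5 and 2660.5 at pnd60, so shares of cells with a count of a gene were also computed at 1000 counts per cell. In the sorted library 0 of 493 cells met the rule, which allows a share of up to 0.609% by the limit of 3 counts and 0.745% by the exact binomial interval. No barcode of a CD8 T cell occurred in more than 1 library and pairs of libraries shared 0 to 4 barcodes of other kept cells.

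At the edges of the rule the counts were low. In hyperoxia at pnd7, 11 of 37 cells had exactly 1 Cd3 count and 13 had exactly 1 Cd8 count. In air at pnd7 these were 5 and 7 of 56, in air at pnd60 20 and 30 of 208, and in hyperoxia at pnd60 25 and 28 of 238. Just outside, 0, 3, 2 and 8 cells of the 4 libraries had 601 to 700 genes, against 0, 2, 6 and 9 members with over 700 and up to 800. Cells with Cd3, Cd8 and Cd4 counts, which the rule leaves out, numbered 30, 10, 32 and 19.

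The label was checked with T cell genes that the rule did not use. A list of 20 T cell genes (receptor signalling, co-stimulation and lineage genes such as Lck, Bcl11b and Thy1) had a median of 9 genes detected per CD8 T cell in air and 7 in hyperoxia at pnd7, and 8 in both libraries at pnd60. The features Trac, Trbc1, Trbc2, Cd2 and Ltb, 5 of the 20, had 0 counts in the CD8 T cells of all 4 libraries. A second feature of the T cell receptor alpha constant gene, Trac_1, held counts. It was detected in 34 of 56, 16 of 37, 121 of 208 and 155 of 238 CD8 T cells, against 0.952%, 1.35%, 0% and 0.133% of endothelial cells in the same libraries. CD4 T cells had it in 85.7%, 95.5%, 68.9% and 77.2% of cells.

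The label did not hold for many of the pnd7 hyperoxia cells. Counts of the T cell list exceeded counts of alveolar, epithelial, endothelial, mesenchymal, macrophage, monocyte and neutrophil markers together in only 18 of 37 cells (48.6%, exact binomial interval 31.9 to 65.6%). In air at pnd7 this was 48 of 56 cells (85.7%), in air at pnd60 191 of 208 (91.8%) and in hyperoxia at pnd60 222 of 238 (93.3%). The other 19 cells of the pnd7 hyperoxia library had a median of 2 counts of the T cell list and 107 counts of the other markers, and 10 cells of that library had under 3 T cell genes detected. Trac_1 was detected in 6 of the 19 cells (31.6%). For those without Trac_1 and with few counts of the T cell list the name CD8 T cell rests mainly on the rule. Sftpc, the surfactant protein of alveolar type II cells, made up 2.54% of all counts of the CD8 T cells in hyperoxia at pnd7, and 1 cell held 5565 of those 8476 counts. In the other libraries it made up 0.193%, 0.325% and 0.0980%.

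**Figure D1:**
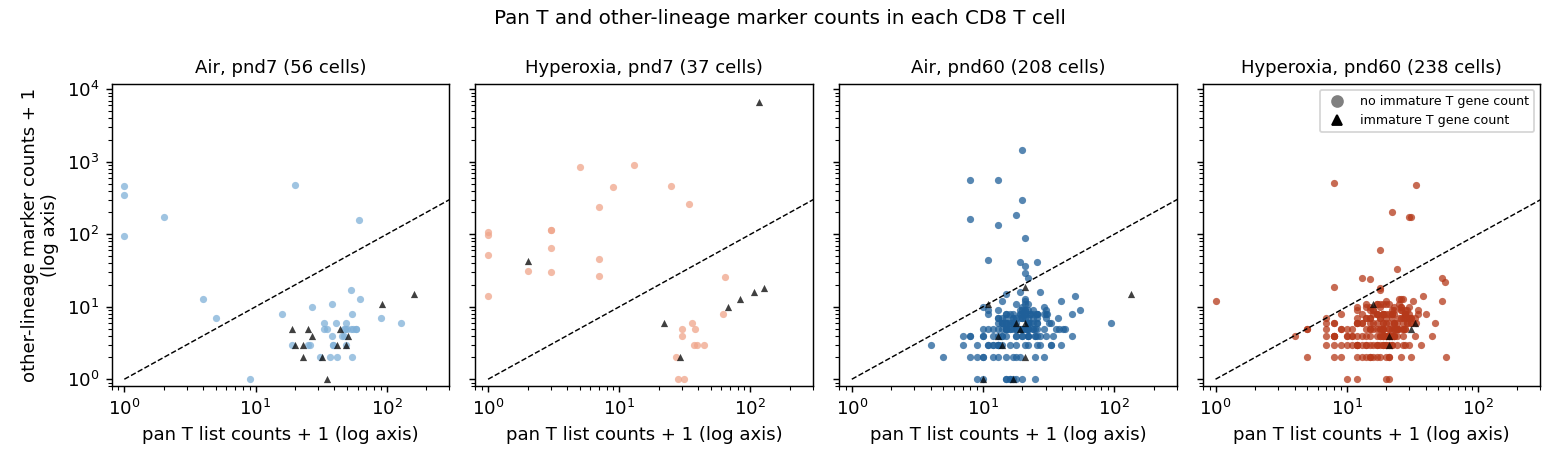
Each point is 1 CD8 T cell, with its counts of the 20-gene T cell list on the x axis and its counts of markers of other lineages on the y axis, both plus 1 on log axes; triangles are cells with counts of immature T cell genes, and the dashed line marks equal counts. In hyperoxia at pnd7, 19 of 37 cells lie on or above the line, against 8 of 56, 17 of 208 and 16 of 238 in the other libraries.

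Some members also carried genes of developing T cells. Rag1 and Rag2 cut receptor genes for recombination, Dntt adds bases at the joints, and Ptcra encodes the surrogate alpha chain. At least 1 count of Rag1, Rag2, Ptcra, Dntt or Arpp21 was present in 14 of 56 (25%) and 8 of 37 (21.6%) CD8 T cells at pnd7 and in 11 of 208 (5.29%) and 5 of 238 (2.10%) at pnd60, in air and hyperoxia. Rag1 had 95, 50, 41 and 25 counts in the CD8 T cells of the 4 libraries and at most 1 count in each endothelial class. These 5 genes were chosen after the values were seen. Whether thymic tissue was carried along with the lungs is not given in the sources used here, and its part in the shares of CD8 T cells and in these counts was not tested. Among cells with both Cd4 and Cd8 counts, which the rule excludes, 24 of 30, 9 of 10, 28 of 32 and 13 of 19 had such counts.

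For both reasons results are also given for a stricter set, chosen after seeing the data. It holds the members with more counts of the T cell list than of the other markers and no counts of the 5 immature genes. These were 34 cells in air and 12 in hyperoxia at pnd7, and 181 and 217 at pnd60. The set of 12 cells is small, and the comparisons that rest on it are given as values only.

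CD8 T cells were 2.43% of cells in air (56 of 2308, interval 1.84 to 3.14%) and 2.97% in hyperoxia (37 of 1246, 2.10 to 4.07%) at pnd7. They were 4.73% in air (208 of 4397, 4.12 to 5.40%) and 5.004% in hyperoxia (238 of 4756, 4.40 to 5.66%) at pnd60. The intervals of air and hyperoxia overlapped at each age, and those of the 2 ages did not overlap in either exposure. Without cells with 3 or more other-lineage counts the intervals of the 2 ages did overlap. They were 0.46 to 1.23% and 0.81 to 1.44% in air, and 0.23 to 1.15% and 0.80 to 1.41% in hyperoxia. With Cd4 counts allowed those of hyperoxia overlapped (2.78 to 4.98% and 4.78 to 6.08%). In the stricter set the shares were 1.47%, 0.963%, 4.12% and 4.56%. Set against the number of cells with counts of Ptprc, the gene of the pan-leukocyte antigen CD45, CD8 T cells were 8.14%, 10.9%, 8.67% and 8.97%. All members were counted here, with or without Ptprc counts, so these are not shares among Ptprc cells. Binomial intervals computed on them overlapped for all 4 libraries but are not exact. Dissociation and loading can set such shares in a single library, and their part was not tested.

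Genes of naive and circulating T cells were higher in CD8 T cells at pnd60 than at pnd7. The list held 12 genes, and its summed level was 3792 CPM (counts scaled to a total of 1e6 per library's CD8 T cells) in air and 2703 CPM in hyperoxia at pnd7, against 7690 and 8273 CPM at pnd60. The log2 ratio of pnd60 over pnd7 was 1.02 in air (0.94 to 1.10) and 1.61 in hyperoxia (1.51 to 1.72). A gene is called here when its CPM differ by a log2 ratio of 1 or more between 2 libraries that hold 30 or more of its counts together. In air 8 of the 12 genes were higher by this measure and none lower, against 18.9% of all genes called higher. In hyperoxia 11 of 12 were higher, against 26.9% of all genes. In the stricter set the log2 ratios of the summed list were 1.09 and 1.08, with 7 and 9 genes called higher against 25% and 32.8% of all genes. In the 18, 7, 48 and 51 members with under 3 counts of the markers of other lineages the ratio of the summed list was 0.69 in air (0.53 to 0.85) and 0.36 in hyperoxia (0.17 to 0.55).

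Ccr7, the receptor that guides T cells into lymph nodes, had 85 and 33 counts in CD8 T cells at pnd7 in air and hyperoxia, and 279 and 349 at pnd60 (182, 99.01, 432 and 493 CPM). At 1000 counts per cell it would be detected in 14.8%, 10.8%, 33.1% and 37.7% of the cells, and without thinning it was in 28 of 56, 10 of 37, 123 of 208 and 155 of 238. It was higher in each library at pnd60 than in either at pnd7, by a log2 ratio of 1.25 in air (0.89 to 1.61) and 2.32 in hyperoxia (1.80 to 2.88). In the stricter set these were 0.91 and 1.04. Endothelial cells had 0 to 8.40 CPM of Ccr7 in the 4 libraries.

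Il7r, the receptor for the survival cytokine interleukin 7, was at 285 and 105 CPM at pnd7 and at 759 and 809 CPM at pnd60. Bach2, a repressor that restrains effector differentiation, was at 87.9 and 78.0 CPM at pnd7 and 437 and 428 CPM at pnd60 (log2 ratios 2.31 and 2.46). Dapl1 went from 40.7 and 39.0 CPM to 215 and 253 CPM. The transcription factor Tcf7 was the gene of the list with the smallest ratios, 868 and 759 CPM at pnd7 against 1138 and 1133 CPM at pnd60, with log2 ratios of 0.39 and 0.58. Tcf7 is also in the T cell list and is made at high level by immature T cells, and in the stricter set its log2 ratio was 1.03 in both exposures.

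The same list was also higher at pnd60 in other cells of these libraries. Its log2 ratio of pnd60 over pnd7 was 0.61 in air and 1.07 in hyperoxia in CD4 T cells, and 0.98 and 0.71 in endothelial cells, where Klf2 and S1pr1 are expressed as well. The median of all genes with 30 or more counts was also above 0 in CD8 T cells, by 0.26 in air and 0.29 in hyperoxia. Relative to those medians the naive list was higher by 0.76 and 1.32 at pnd60. In the stricter set the medians of all genes were 0.41 in air and 0.58 in hyperoxia, against 1.09 and 1.08 for the naive list. Depth per cell, age and library cannot be told apart in this comparison.

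**Figure D2:**
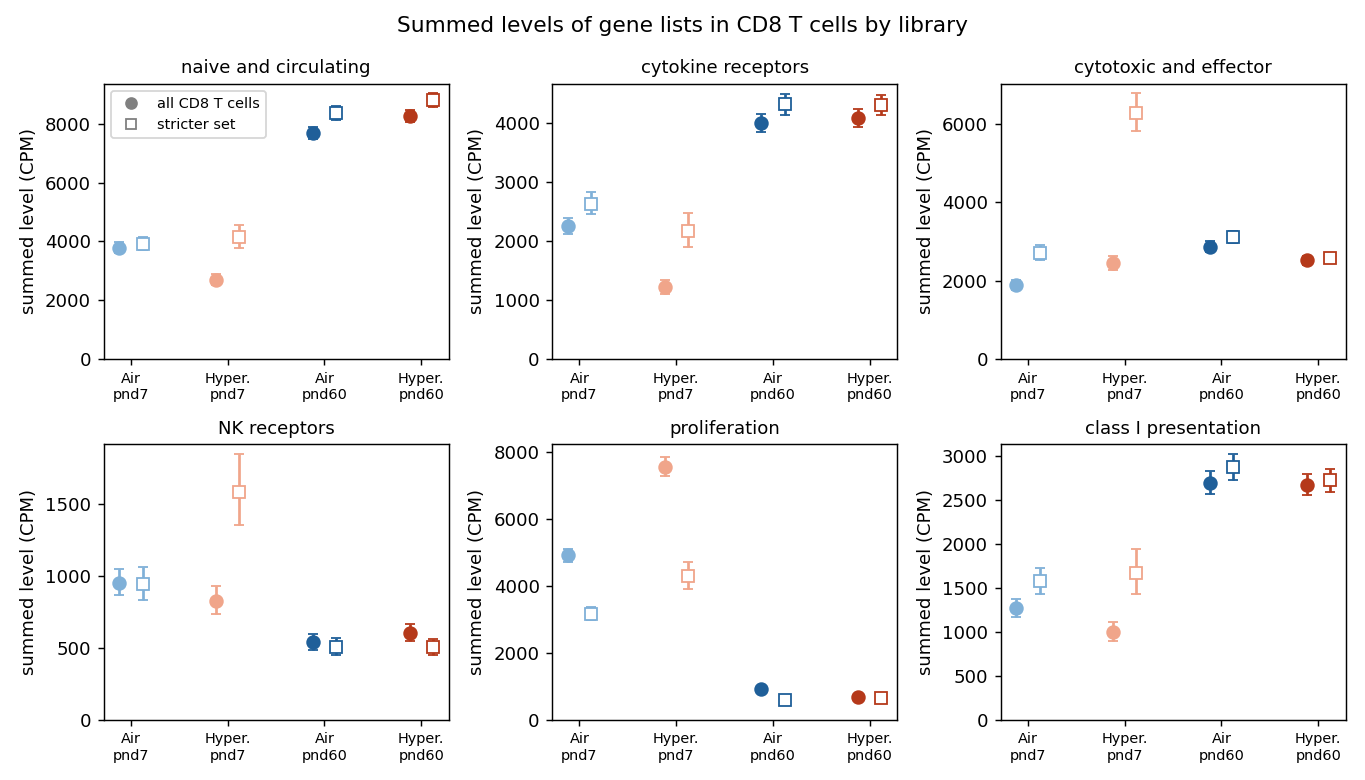
Summed level in CPM (y axis) of 6 gene lists in the CD8 T cells of each library (x axis), for all 539 cells (filled circles) and for the stricter set (open squares), with 95% Poisson intervals. Naive, cytokine receptor and class I lists are higher in both pnd60 libraries, the proliferation list is higher in both pnd7 libraries, and the cytotoxic list stands highest in the 12 stricter cells of hyperoxia at pnd7. Of the 661 cytotoxic counts in those 12 cells, 405 are in 1 cell.

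**Figure D3:**
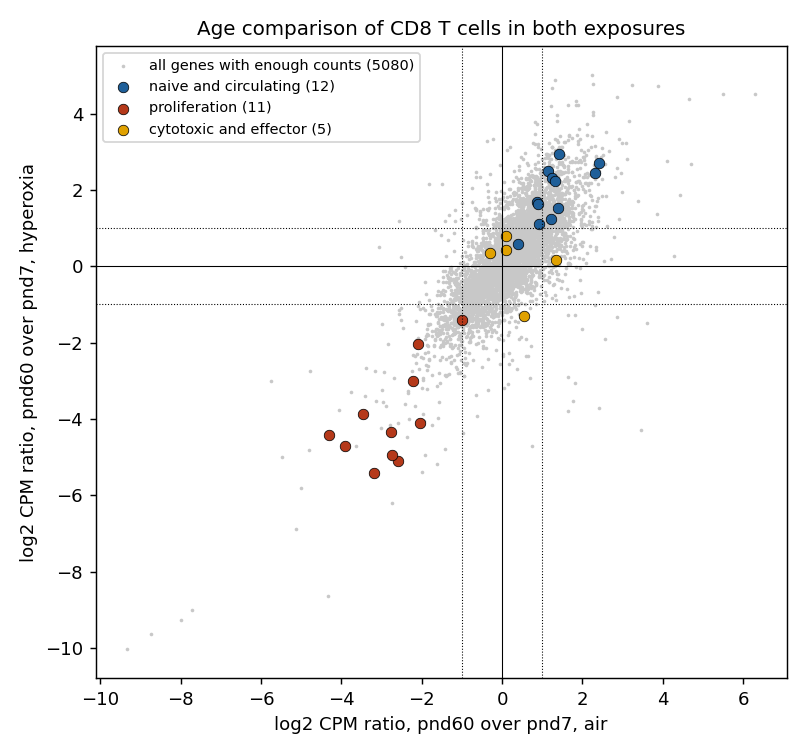
Log2 CPM ratio of pnd60 over pnd7 in CD8 T cells, in air on the x axis and after hyperoxia on the y axis, for the 5080 genes with 30 or more counts in both comparisons (grey, with a library at 0 counts set to 3) and for 3 gene lists (coloured). All 12 naive genes lie above 0 on both axes, and all 11 proliferation genes lie below 0 on both.

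Proliferation genes were lower in CD8 T cells at pnd60. The 12 genes summed to 4915 CPM in air and 7567 CPM in hyperoxia at pnd7, against 915 and 694 CPM at pnd60. The log2 ratios of pnd60 over pnd7 were -2.43 in air and -3.45 in hyperoxia, and -2.40 and -2.75 in the stricter set. In the members with under 3 counts of other markers they were -2.88 in air and -0.17 in hyperoxia (-0.94 to 0.67), where the interval spans 0 with 7 cells at pnd7. Of the 11 genes with enough counts 10 were called lower in air and 11 in hyperoxia, against 9.38% and 14.3% of all genes called lower.

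Mki67, a marker of dividing cells, had 124 and 161 counts at pnd7 and 19 and 8 at pnd60. Top2a, which untangles DNA before division, had 224 and 310 counts at pnd7 and 52 and 19 at pnd60. At least 1 of the 2 genes was detected in 20 of 56 and 22 of 37 CD8 T cells at pnd7, and in 8 of 208 and 3 of 238 at pnd60. At 1000 counts per cell these shares would be 18.6% and 32.1% at pnd7, and 1.70% and 1.12% at pnd60. Among the stricter cells 11 of 34, 2 of 12, 7 of 181 and 2 of 217 cells had them. Endothelial cells showed the same order, with 17.4% and 25.1% at pnd7 and 0.620% and 0.420% at pnd60 after thinning, and their summed list had log2 ratios of -3.02 and -2.77. The stricter CD8 T cells (15.5%, 9.83%, 1.47% and 0.794%) and CD4 T cells (11.6%, 7.66%, 3.11% and 5.19%) were also lower at pnd60 but did not have the higher share in hyperoxia at pnd7. In CD4 T cells the summed list had log2 ratios of -0.50 and -1.28 over age, and of 0.74 in hyperoxia against air at pnd7.

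Immature members held part of the proliferation counts. Of the 8 members with immature genes in hyperoxia at pnd7, 6 had Mki67 or Top2a, against 4 of 14 in air at pnd7. The summed list was higher in hyperoxia than in air at pnd7 by a log2 ratio of 0.62 (0.54 to 0.70), but it turned to -2.40 (-3.16 to -1.73) in the members with under 3 counts of other markers. In the stricter set it was 0.43, and there Pcna, the DNA clamp of replication, had 3 counts in hyperoxia against 54 in air and Mcm5 4 against 35, whereas Top2a had 58 against 71. At pnd60 the list was lower in hyperoxia than in air by a log2 ratio of -0.40, but it was 0.010 without the cell with the most counts in each library, 0.079 in the stricter set and 0.31 in the members with under 3 counts of other markers.

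Of the genes of cytotoxic granules and effector cytokines, Ccl5 and the granzymes were held by a minority of cells. At least 1 count of the list was found in 48 of 56, 27 of 37, 181 of 208 and 208 of 238 cells. The 15 listed genes summed to 1884 CPM in air and 2442 CPM in hyperoxia at pnd7, and to 2866 and 2517 CPM at pnd60. Ccl5, a chemokine of memory and effector cells, held the most counts of the list in every library (242, 352, 852 and 842). It was detected in 14 of 56, 8 of 37, 50 of 208 and 44 of 238 CD8 T cells, and after thinning in 15.3%, 12.6%, 18.4% and 14.8%. The thinned share in endothelial cells was 2.24%, 0.168%, 0.836% and 0.452%. In hyperoxia at pnd7 single cells held 252 of the 352 Ccl5 counts, 119 of the 131 Gzma counts and all 50 Xcl1 counts.

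Granzyme A (Gzma) was in 6, 4, 15 and 6 CD8 T cells, with 102, 131, 208 and 112 counts. Perforin (Prf1) had 2 and 1 counts at pnd7 and 31 and 20 counts at pnd60, in 25 and 17 cells. Gzmb had 8, 9, 25 and 16 counts, and Gzmk 0, 0, 4 and 1. Ifng had 18, 23, 7 and 10 counts. By contrast Nkg7, a granule membrane gene, was spread over many cells (32 of 56, 16 of 37, 114 of 208 and 140 of 238) at 407, 315, 440 and 421 CPM, and Ctsw at 238, 150, 255 and 262 CPM. The Tnf feature, like Trac and Ltb, had 0 counts in CD8 T cells, and also in CD4 T cells and endothelial cells. No source used here names the annotation behind the counts, and these zeros are not read as absence of the transcript.

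The age comparison of the cytotoxic list rested on few cells. The log2 ratio of pnd60 over pnd7 was 0.61 in air (0.49 to 0.72) and 0.04 in hyperoxia (-0.08 to 0.16). Restricted to the stricter cells, it was 0.21 in air and -1.28 in hyperoxia, and without the cell with the most counts in each library 0.82 and 0.88. In hyperoxia against air at pnd7 it was 0.37 (0.24 to 0.51), 1.21 in the stricter set, -0.29 without the cell with the most counts and -0.38 in the members with under 3 counts of other markers. In hyperoxia at pnd7 1 cell of the stricter set held 405 of its 661 counts of the list. The values of -1.28 and 1.21 thus rest largely on that cell. At pnd60 the list was lower in hyperoxia than in air by a log2 ratio of -0.19 (-0.28 to -0.09), or -0.87 (-1.19 to -0.56) in the members with under 3 counts of other markers, and of 9 genes with enough counts 1, Gzma, was called lower (-1.02, -1.37 to -0.69) and none higher. None of 9 genes in the stricter set was called either way, and Gzma had a log2 ratio of -0.82 from 144 counts in air and 95 in hyperoxia. For reference 1.84% of all genes were called lower and 2% higher in that comparison.

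Within the stricter set, cells with Ccl5 counts were compared with those without, as a description made after the data were seen. At pnd60 in air, 44 of 181 cells had Ccl5 and in hyperoxia 41 of 217. In those cells Il2rb, the shared receptor chain for interleukins 2 and 15, stood at 905 CPM in air and 874 CPM in hyperoxia, against 188 and 159 CPM in cells without Ccl5. Cd44, an adhesion receptor of activated and memory cells, stood at 166 and 253 CPM against 32.7 and 38.2 CPM, and Ly6c2, a surface antigen of memory cells, at 1098 and 1250 CPM against 444 and 367 CPM. Lef1, a factor of naive cells, stood the other way at 246 and 353 CPM against 866 and 918 CPM, and Dapl1 at 46.6 and 46.0 CPM against 338 and 336 CPM. All but 1 of the Gzma counts in air and all in hyperoxia were in cells with Ccl5. At pnd7 in air the 13 cells with Ccl5 and the 21 without stood at 384 and 208 CPM for Il2rb, at 69.9 and 19.5 CPM for Cd44 (10 and 3 counts), at 265 and 493 CPM for Lef1 and at 545 and 519 CPM for Ly6c2. Dapl1 had 0 counts in the cells with Ccl5 and 18 in those without, and 96 of 97 Gzma counts were in cells with Ccl5. In hyperoxia at pnd7, 5 cells had Ccl5 and 7 did not. They stood at 248 and 102 CPM for Il2rb, at 390 and 285 CPM for Ly6c2 and at 213 and 918 CPM for Lef1. Cd44 had 4 and 1 counts, and all 119 Gzma counts were in 1 cell with Ccl5. There Dapl1 went the other way, at 124 CPM (7 counts) with Ccl5 and 102 CPM (5 counts) without.

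Effector and memory genes outside the granule list were higher as a sum at pnd60. The 15 genes summed to 1646 and 1596 CPM at pnd7 and to 2421 and 2354 CPM at pnd60 (log2 ratio 0.56 in both exposures). The medians of all genes were 0.26 in air and 0.29 in hyperoxia. In the stricter set the list had 0.59 and 0.54, against medians of 0.41 and 0.58, so in hyperoxia it was not above the median. Of 12 genes with enough counts in air 1, Id2, was called higher and 1, Cxcr3, lower, and of 11 in hyperoxia 6 were called higher and 2 lower. Of all genes 18.9% and 26.9% were called higher and 9.38% and 14.3% lower in these comparisons, so the air counts were not above the background. Among the stricter cells 2 of 9 genes were called higher and 1 lower in air, and 1 of 8 higher and 1 lower in hyperoxia, against 25% and 32.8% of all genes called higher. Id2, a regulator of effector differentiation, was at 94.3 and 219 CPM at pnd7 and at 307 and 314 CPM at pnd60. Cxcr3, a chemokine receptor of effector cells, had 36, 9, 19 and 23 counts. Eomes, a T-box factor of memory cells, had 20, 4, 43 and 28 counts, and Klrg1 had 0, 3, 8 and 4. As a sum the list was also higher at pnd60 in CD4 T cells (1.24 in air and 0.64 in hyperoxia) and endothelial cells (0.89 and 0.73).

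Among tissue residence genes Cd69, an early activation antigen that also holds cells in tissue, was higher at pnd60 in both exposures. It had 28 and 19 counts at pnd7 (60.02 and 57.01 CPM) and 216 and 196 counts at pnd60 (334 and 277 CPM). The log2 ratios were 2.48 in air (1.91 to 3.1) and 2.28 in hyperoxia (1.60 to 3.04), and 2.02 and 1.84 in the stricter set. The share of cells with Cd69 after thinning was 5.70%, 4.55%, 26.6% and 20.3%. The integrin Itgae (CD103), which binds epithelial cadherin, had 5, 2, 16 and 15 counts, and Cxcr6 14, 4, 26 and 31. Ccr8 had none.

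Receptors of the NK type were higher as a sum in CD8 T cells at pnd7 in air than at pnd60, whereas in hyperoxia the direction rested on 1 cell. The 12 genes summed to 952, 828, 537 and 602 CPM, with log2 ratios of pnd60 over pnd7 of -0.82 in air (-1.03 to -0.62) and -0.46 in hyperoxia (-0.68 to -0.24). In hyperoxia at pnd7 1 cell held 134 of the 276 counts, and without the cell with the most counts in each library the ratio was -0.55 in air and turned to 0.27 in hyperoxia (-0.01 to 0.55). In the stricter set the ratios were -0.90 and -1.65, but in hyperoxia at pnd7 that 1 cell held 134 of the set's 167 counts. Klrd1 (CD94) had 178, 102, 152 and 235 counts in 27, 17, 97 and 125 cells. Cd160, a receptor for HVEM, had 31 counts in 17 cells and 34 in 6 cells at pnd7, and 14 in 10 cells and 2 in 2 cells at pnd60. Fcer1g and Tyrobp, adaptor proteins found mostly in NK and myeloid cells, were concentrated in few cells, with 74 of 125 Fcer1g counts in 1 cell in air at pnd7. Of the defining NK genes, Ncr1 had counts in 1, 1, 3 and 1 CD8 T cells and Klrb1c in 4, 3, 2 and 2. The 8 NK markers summed to 700.9, 690.1, 573 and 393 CPM, with Fcer1g holding the most counts in air at pnd7 and Gzma in the other 3 libraries. In each pnd7 library 2 of the 8 were at 0. Their part in the results on cytotoxic genes was not tested.

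Inhibitory receptors were low throughout. Their 9 genes summed to 122, 153, 161 and 204 CPM. Tox, a factor linked to chronic stimulation and also to thymic development, had 16, 8, 32 and 74 counts, and was higher in hyperoxia than in air at pnd60 by a log2 ratio of 1.08 (0.46 to 1.72), in 53 of 238 against 29 of 208 cells. Ctla4, which restrains co-stimulation, had 1, 1, 16 and 45 counts, a log2 ratio of 1.36 at pnd60 (0.51 to 2.28), in 18 against 11 cells. In CD4 T cells of the pnd60 libraries Ctla4 was at 268 CPM in air and 245 CPM in hyperoxia, from 124 and 125 counts. Tigit went the other way with 17 counts in air and 3 in hyperoxia at pnd60. Pdcd1 (PD-1), Lag3 and Havcr2 had at most 5 counts in any library.

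Cytokine and chemokine receptors were higher at pnd60. The 23 genes summed to 2255 and 1215 CPM at pnd7 and to 4001 and 4079 CPM at pnd60, a log2 ratio of 0.83 in air and 1.75 in hyperoxia. For the stricter set it was 0.71 and 0.99. Of hyperoxia against air at pnd7 the log2 ratio was -0.89 (-1.06 to -0.73), with 5 of 15 genes called lower against 5.16% of all genes, and it was -0.28 in the stricter set, where 1 of 11 genes was called lower and none higher against 8.53% of all genes called either way. In the age comparison 6 of 21 genes with enough counts in air were called higher and 1 lower, and of 19 in hyperoxia 14 higher and 0 lower, against 18.9% and 26.9% of all genes called higher. Cxcr4, a homing receptor for bone marrow and tissue, went from 34.3 and 18.0 CPM to 173 and 134 CPM (log2 ratios 2.34 and 2.90). Il18r1 went from 27.9 and 18.0 CPM to 116 and 96.2 CPM. Ccr9, a gut-homing receptor also found on thymocytes, was at 120, 63.0, 135 and 134 CPM, with log2 ratios of 0.17 and 1.09. The summed list was also higher at pnd60 in CD4 T cells (0.80 in air and 1.07 in hyperoxia) and in endothelial cells (1.15 and 1.06).

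B2m, the light chain of class I molecules, held most counts of the class I presentation list. It was at 1087 and 783 CPM at pnd7 and 2455 and 2459 CPM at pnd60, with log2 ratios of 1.18 and 1.65. In endothelial cells it was at 321, 484, 2612 and 2949 CPM, which was a larger difference than in CD8 T cells. Of the 9 listed genes 3 had 30 or more counts in the age comparisons, and 4 or 5 were at 0 in each library. Txnip, an inhibitor of thioredoxin that responds to glucose, was at 253 and 183 CPM at pnd7 and at 1135 and 959 CPM at pnd60, log2 ratios of 2.17 and 2.39.

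Genes of oxidative stress and of the p53 response differed little between hyperoxia and air at pnd60. The 18 genes summed to 2373 CPM in air and 2234 CPM in hyperoxia (log2 ratio -0.09, -0.19 to 0.02). In the stricter set the log2 ratio was -0.14 (-0.26 to -0.02). Of 11 genes with enough counts none was called in either direction, against 2% of all genes called higher and 1.84% lower, so this count says little. At pnd7 the 18 genes summed to 1618 and 1983 CPM (0.29, 0.14 to 0.45), and in the stricter set the log2 ratio was 0.15 (-0.12 to 0.42). Of 10 genes with enough counts 1 was called higher, against 5.43% of all genes. That gene was Mt1, a metal-binding protein, with 17 counts in 4 cells in air and 31 counts in 7 cells in hyperoxia, and 1 and 0 counts in the stricter set. Hmox1 had 5 and 17 counts at pnd7 and 4 and 3 at pnd60, with 11 of the 17 counts in 1 cell. Cdkn1a (p21), which stops the cell cycle in response to p53, had 0, 0, 1 and 8 counts in CD8 T cells, and 6 of the 8 were in 1 cell. Cdkn2a had 1 count in air at pnd7 and 0 in the other libraries.

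The list of cell cycle inhibitors and genes linked with senescence, named in the study and so not chosen independently of these samples, summed to 1755 CPM in air and 1428 CPM in hyperoxia at pnd7, and to 3233 and 3234 CPM at pnd60. B2m held most of the list's counts. The list's log2 ratio of hyperoxia over air at pnd7 was -0.30 (-0.46 to -0.13), but 0.044 (-0.19 to 0.28) in the stricter set. Between hyperoxia and air 1 of 6 genes was called higher at pnd7 and 0 of 7 were called at pnd60. Interferon-stimulated genes summed to 585, 462, 678 and 676 CPM. Their log2 ratio of hyperoxia over air at pnd7 was -0.34 (-0.64 to -0.05), but it turned to 0.46 (0.10 to 0.81) in the stricter set. Of the interferon genes with enough counts 0 of 3 were called at pnd7 and 0 of 6 at pnd60. Of all genes 5.43% were called higher and 5.16% lower at pnd7, and 2% and 1.84% at pnd60, so such small counts say little about these lists.

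Immediate early genes, which also respond to tissue dissociation, were slightly higher in hyperoxia at pnd60. Their 14 genes summed to 4132 CPM in air and 4876 CPM in hyperoxia (log2 ratio 0.24, 0.17 to 0.31). Of 11 with enough counts 0 were called, against 2% of all genes called higher and 1.84% lower. Junb was at 1689 CPM in 185 of 208 cells and 2165 CPM in 225 of 238 cells (0.36, 0.25 to 0.47). In CD4 T cells of the same libraries Junb was at 1639 and 2605 CPM, and in endothelial cells at 420 and 485 CPM. The summed list had log2 ratios of 0.31 in CD4 T cells and -0.046 in endothelial cells. Handling of the tissue and exposure cannot be told apart with 1 library each.

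Between hyperoxia and air the CD8 T cells differed in fewer genes at pnd60 than at pnd7, and with more counts at pnd60. At pnd7, 224 of 4127 genes were called higher in hyperoxia (5.43%) and 213 lower (5.16%). At pnd60, 128 of 6409 were called higher (2%) and 118 lower (1.84%). With the stricter cells the calls in both directions together were 156 of 1828 genes at pnd7 (8.53%) and 140 of 5487 at pnd60 (2.55%). The naive list had a log2 ratio of hyperoxia over air of -0.49 (-0.61 to -0.37) at pnd7 and 0.11 (0.05 to 0.16) at pnd60. Among the stricter cells these were 0.082 (-0.080 to 0.24) and 0.073, and in the members with under 3 counts of other markers the pnd7 ratio turned to 0.40 (0.18 to 0.62). The 12 naive genes were all below 0 in hyperoxia over air at pnd7, some by less than counting error, and 2 were called, among them Il7r with a log2 ratio of -1.44 (-2.02 to -0.89). Restricted to the stricter cells, none of the 12 was called, and Il7r was at -0.38, from 125 counts in air and 34 in hyperoxia.

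The genes with the largest ratios at pnd7 included genes of other lung cells. Among genes seen in 5 or more cells the 5 highest in hyperoxia were Wdcp, Sftpa1, Hc, Chil1 and Bex4, with log2 ratios of 4.76 to 5.68. Sftpa1, a surfactant protein gene of type II cells, had 695 counts in hyperoxia and 20 in air, of which 1 and 2 remained in the stricter set. The 5 lowest were Pdzd2, Cd163l1, Il17ra, Bc1 and Nr4a1. Il17ra, a receptor chain for interleukin 17, had 36 counts in 22 cells in air and 3 counts in 3 cells in hyperoxia (-3.10, -5.44 to -1.44), and 24 against 1 in the stricter set. Cd163l1, known from gamma delta T cells, had 37 counts in 10 cells in air, all in the stricter set, against 3. Nr4a1, an early response gene to receptor signalling, had 30 against 3 counts, and 3 against 1 in the stricter set.

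At pnd60 the 5 genes lowest in hyperoxia were S100a9, S100a8, Plxdc2, Ltbp4 and Sftpa1. S100a9 and S100a8, which are neutrophil genes, had 267 and 204 counts in 6 and 7 cells in air and 1 and 2 counts in hyperoxia, and 3 each in air in the stricter set. The 7 neutrophil markers together had 4, 4, 510 and 5 counts, and 288 of the 510 were in 1 cell. The 5 highest in hyperoxia were Car4, Srsf3, Podxl, Pdgfb and BC028528. Car4, a capillary endothelial gene, had 29 counts in 8 cells against 3, and 6 against 3 in the stricter set. Pdgfb, a growth factor gene, had 38 against 7 counts, and 15 against 2 in the stricter set. Srsf3, a splicing factor, had 60 counts in 52 of 238 cells in hyperoxia and 8 counts in 8 of 208 cells in air (2.78, 1.71 to 4.05). For the stricter set it was 49 against 6 counts. It was also at 80.4 against 36.8 CPM in CD4 T cells and at 53.01 against 11.8 CPM in endothelial cells of those libraries, in the same direction.

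Few genes were called in the same direction at both ages. Of 3867 genes with enough counts at both, 7 were higher in hyperoxia at pnd7 and pnd60 (0.181%) and 2 lower (0.0517%). The 7 were Car4, Chil3, Ear2, Srsf3, Ly6d, Cd36 and Mpeg1. Chil3, Ear2 and Mpeg1 are macrophage genes, and all of their 38, 38 and 52 counts in hyperoxia at pnd7 came from 1 cell. The 2 lower genes were Lpin2, an enzyme of lipid synthesis, and Cldnd1. Lpin2 had 23 and 7 counts at pnd7 and 43 and 21 at pnd60, and Cldnd1 35 and 11, and 47 and 25. With the stricter cells the log2 ratios of Cldnd1 were -1.44 and -1.29, from 3 counts in hyperoxia at pnd7. Those of Lpin2 were -0.67 and -0.56, short of the threshold, from 9 and 2 counts at pnd7 and 19 and 15 at pnd60.

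**Figure D4:**
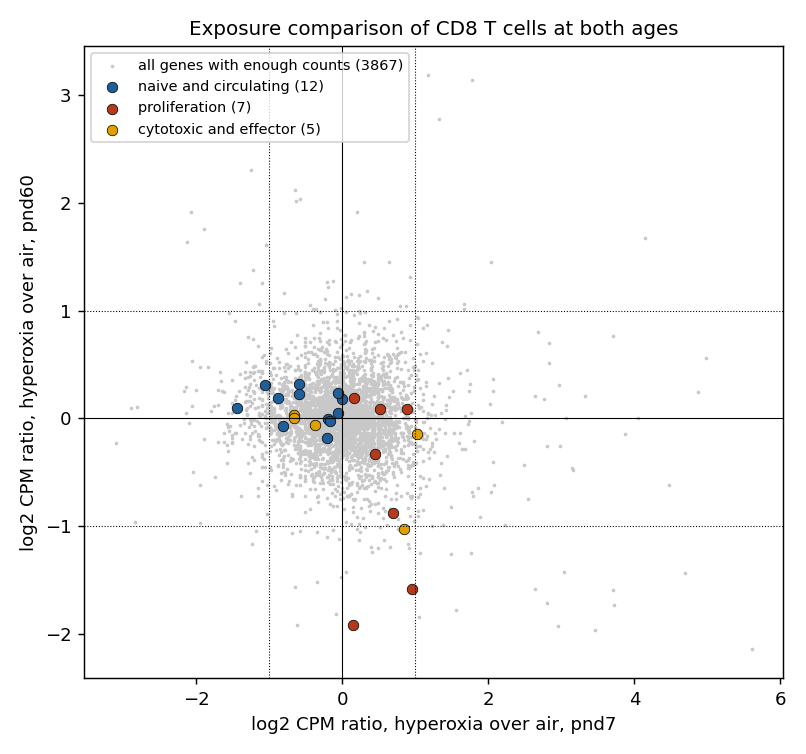
Log2 CPM ratio of hyperoxia over air in CD8 T cells at pnd7 (x axis) and at pnd60 (y axis), for the 3867 genes with 30 or more counts in both comparisons (grey, with a library at 0 counts set to 3) and for 3 gene lists (coloured). The spread is wider at pnd7, and the 12 naive genes lie below 0 at pnd7 and around 0 at pnd60.

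With age, 676 of 5080 genes were called higher at pnd60 in both exposures (13.3%) and 327 lower in both (6.44%). Led by the smaller ratio, the 10 genes highest at pnd60 were Gpx3, Inmt, Fgf13, Scgb1a1, Als2cl, Fmo2, Ttc39b, Hid1, Rapgef4 and Zc3h12d. Scgb1a1, the secretoglobin of club cells, had 9 and 6 counts in CD8 T cells at pnd7 and 185 and 334 at pnd60, in 112 of 208 and 164 of 238 cells. Inmt, a fibroblast gene, had 0 and 0, then 187 and 145 counts. CD4 T cells had Scgb1a1 at 23.8, 34.1, 324 and 504 CPM, much like CD8 T cells at 19.3, 18.0, 286 and 472 CPM. Fgf13 had 1 and 1, then 35 and 44 counts, in 28 and 36 cells, with 33 and 41 counts in the stricter set, and 0 to 25.5 CPM in CD4 T cells. Als2cl had 6 and 2, then 78 and 115 counts, in 61 and 81 cells.

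The genes lowest at pnd60 were the hemoglobin genes Hbb-bt, Hbb-bs, Hba-a2 and Hba-a1. The 6 red blood cell genes summed to 25412 and 11854 counts in CD8 T cells at pnd7, in all 56 and all 37 cells (54468 and 35566 CPM), and to 102 and 35 counts at pnd60 (158 and 49.5 CPM). Hbb-bs was at 24524 and 24117 CPM in CD4 T cells at pnd7 and at 9921 and 17025 CPM in endothelial cells, so red cell transcripts were present across classes. A single CD8 T cell held 10365 of the red cell counts in air at pnd7 and another held 10316 in hyperoxia. Among the stricter cells these genes made up 68424 and 98931 CPM at pnd7. Both of those single cells are in the stricter set, with 10365 of its 20337 red cell counts in air and 10316 of 10426 in hyperoxia. Red cell genes were not among the other markers used to choose that set. The histone genes H2ac8 and H1f5 followed, with 127 and 167, then 5 and 3 counts, and with 92 and 210, then 4 and 8 counts. In the stricter set few of these remained, with 5 and 27, then 2 and 3 counts, and with 0 and 13, then 1 and 4 counts.

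CD8 T cells were also set beside CD4 T cells of the same library, which numbered 42, 22, 167 and 180. With 4 pairs of libraries a permutation test could not pass a threshold of 0.05, so no test was made. Genes were ranked by their smallest log2 ratio over the 4 libraries. Ly6c2 was higher in CD8 T cells, with 161, 74, 361 and 362 counts against 3, 2, 30 and 11 in CD4 T cells and log2 CPM ratios of 5.08, 4.51, 3.11 and 4.57. Klrd1 was higher by 5.81, 5.97, 2.31 and 5.41, and Ccl5 by at least 5.67 in air at pnd7 and by 2.71, 2.03 and 2.25 in the other libraries. Cxxc5, a zinc finger gene, had 14, 16, 42 and 43 counts against 1, 2, 0 and 3.

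Other genes of that ranking are known mainly from other cells. Ccl6, Lpl and Mrc1 are macrophage genes, with 208, 108 and 32 counts in hyperoxia at pnd7. Trdc_1, a feature of the T cell receptor delta constant gene, had 29, 28, 11 and 19 counts, and Arpp21, of immature T cells, 73, 78, 38 and 23. The genes lower in CD8 T cells included genes of helper and regulatory T cells. Cd40lg, the ligand for CD40, had 1, 2, 0 and 0 counts against 35, 21, 19 and 34. Foxp3, the factor of regulatory T cells, had 0 counts in the CD8 T cells of all 4 libraries against 20, 11, 20 and 35 in CD4 T cells, and Zbtb7b, which directs the CD4 lineage, 7, 3, 6 and 4 against 18, 9, 35 and 33.

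Several further lists held few counts or moved little. Genes of gamma delta, NKT and other innate T cells had 21, 11, 20 and 12 counts in CD8 T cells. Of the 12 listed, 10 were present as features and 5 of these were at 0 in the CD8 T cells of all libraries. Trdc_1, which is outside that list, was detected in 8 of 56, 6 of 37, 6 of 208 and 8 of 238 CD8 T cells. Neither the rule nor the stricter set leaves out cells with Trdc_1 counts. Ribosomal protein genes, which were compared as a measure of library composition, summed to 61629, 53937, 65505 and 66258 CPM. CD4 and regulatory T cell markers had 13, 8, 32 and 70 counts, of which Ctla4 held 45 in hyperoxia at pnd60. B cell markers had 79, 100, 18 and 50 counts, and Ly6d, an antigen of developing lymphocytes, held 59, 95, 3 and 30 of them.

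Markers of other lineages moved with the libraries. Alveolar type II markers summed to 2143, 29055, 4155 and 1219 CPM in CD8 T cells, with Sftpc the most abundant gene in each library, and 6501 of the 9684 counts in hyperoxia at pnd7 were in 1 cell. Endothelial markers summed to 845, 366, 396 and 932 CPM, with 359 of 394 counts in 1 cell in air at pnd7 and 439 of 659 in 1 cell in hyperoxia at pnd60. Mesenchymal markers summed to 302, 906, 656 and 414 CPM, and alveolar macrophage markers to 68.6, 576, 192 and 452 CPM. Restricted to the stricter cells, type II markers were at 148, 133, 251 and 289 CPM and alveolar macrophage markers at 6.73, 0, 3.87 and 20.0 CPM. Endothelial markers were at 33.6, 28.5, 278 and 289 CPM there, mesenchymal markers at 40.4, 47.4, 383 and 416 CPM and other epithelial markers at 138, 114, 435 and 592 CPM. These 3 lists were thus higher at pnd60 in both exposures in the stricter set, with log2 ratios of 3.05 and 3.35 for endothelial markers. Over all CD8 T cells endothelial markers were lower at pnd60 in air (-1.09) and mesenchymal markers lower in hyperoxia (-1.13). Otherwise the 3 lists were higher at pnd60 there as well. Monocyte and macrophage markers summed to 572, 852, 443 and 383 CPM, and other epithelial markers to 204, 174, 420 and 601 CPM. The part of such cells or of free RNA in the gene comparisons was not tested beyond the stricter set.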

How the data were processed

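Libraries were made with 10x Genomics 3' chemistry v3.1 and, per the labels, analysed by the authors with Seurat 3.2.1. Cell Ranger and the mm10 build appear in the submitters' processing notes, and the matrix headers name software 3.1.0. The deposited values are raw UMI counts per gene and barcode for 42454 features. No cell annotation was used. A barcode was kept with over 700 and fewer than 8000 genes and less than 5% of its counts from the 2 mitochondrial features in the table. Per library 16648251, 13576172, 14744081 and 16533775 counts remained.

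Counts were summed over the CD8 T cells of a library and scaled to the library's CD8 T cell total as counts per 1e6 (CPM). Intervals (95%) were exact Poisson for CPM, Clopper-Pearson for shares and conditional binomial for log2 CPM ratios. A gene was called at a log2 ratio of 1 or more with 30 or more counts in both libraries together, with the rule's genes left out. This is a rule of size, not a test. With 0 counts in a library, 3 counts were used as a bound. Cells were thinned to 1000 counts for shares, which left out 2 CD8 T cells of the air pnd60 library. CD4 T cells were cells with Cd3 and Cd4 but no Cd8 or B cell gene counts.

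Members and gene lists were chosen with earlier results of these data known. Besides listed genes, the text took genes from the 5 highest and 5 lowest ratios in a comparison among genes in 5 or more cells. Further genes came from those called in both exposures or ages (up to 10), and from 10 genes each way against CD4 T cells. Not all genes of these rankings are named. The rule also took the 10 most abundant genes outside the lists, which are not described. The interval code was tested on simulated data. Doublets were scored with Scrublet in scanpy 1.11.5, which called 0.0433% and 0.321% of kept barcodes at pnd7 and 3.14% and 3.28% at pnd60. It has not worked on the air pnd7 library. In hyperoxia at pnd7 it called 0 of 37 members, although T cell counts did not lead in 19 of them. Called members (0, 0, 12 and 6) were left out only as an alternative, which therefore changes no member at pnd7 and says little there. Python 3.11.15, numpy 2.4.6, scipy 1.17.1 and pandas 2.3.3 were used. Other settings are given in the closing section, 25 of them chosen after the data were seen. Some genes of the lists are not reported here by name.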

Additional observations from a re-analysis of the deposited data

Results flagged for a closer look

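In 6 gene lists the difference between hyperoxia and air lay beyond counting error with opposite signs at the 2 ages, 3 of them T cell lists and 3 markers of other lineages. The naive list had a log2 CPM ratio of hyperoxia over air of -0.488 at pnd7 and 0.106 at pnd60. The cytotoxic list had 0.374 at pnd7 and -0.187 at pnd60. The proliferation list had 0.623 at pnd7 and -0.398 at pnd60. Endothelial markers had -1.21 at pnd7 and 1.23 at pnd60, type II markers 3.76 and -1.77, and mesenchymal markers 1.58 and -0.664. In 4 lists, all of other lineages, the difference between pnd60 and pnd7 had opposite signs in air and in hyperoxia, with 1.48 and -0.348 for alveolar macrophage markers, -1.09 and 1.35 for endothelial markers, 0.955 and -4.58 for type II markers, and 1.12 and -1.13 for mesenchymal markers. With 1 library per group the difference between such effects was not tested in any of them. In the stricter set the naive list had 0.082 and 0.073, so the signs no longer differed, and the proliferation list had 0.43 and 0.079. The cytotoxic list had 1.21 and -0.27 there, and -0.29 at pnd7 without the cell with the most counts of the list in each library. In hyperoxia at pnd7 that cell was in the stricter set and held 405 of its 661 counts of the list. Endothelial, type II and mesenchymal markers were higher at pnd60 than at pnd7 in both exposures there (3.05 and 3.35, 0.76 and 1.12, and 3.24 and 3.13). The ratio of alveolar macrophage markers had no value in air. For hyperoxia over air at pnd7 and pnd60 the first 3 lists had -0.24 and 0.056, -0.16 and 0.20, and 0.23 and 0.12. Cells entered that set partly by low counts of these same markers, so their signs there cannot decide whether the flagged differences hold.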

How the results depend on the processing

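No paired analysis of a condition was made because no group held more than 1 library. CD8 and CD4 T cells of the same library are paired, but they were set side by side as values only. Of the recomputed values, 119 stayed within counting error or 1.5 times, 102 moved and 11 turned direction from a value beyond counting error, and the cause was not tested. A further 9 changed sign from a value whose interval spans 0 and are counted among the first 2 groups. Leaving out cells with 3 or more other-lineage counts gave shares of 0.780%, 0.562%, 1.09% and 1.07%. This setting is called without other lineages below, but it also left out most members led by T cell counts. Those members numbered 48, 18, 191 and 222, with a median of 4 other-lineage counts in each library, and only 18, 7, 48 and 51 members remained. Shares with 2 or more Cd3 and Cd8 counts were 1.52%, 3.62% and 4.06% in hyperoxia at pnd7 and in air and hyperoxia at pnd60. With Cd4 counts allowed they were 3.73% and 5.46% in air at pnd7 and pnd60. Per cell with Ptprc they were 8.14%, 10.9%, 8.67% and 8.97%. The share in air at pnd7 without immature genes was 1.82%, that in hyperoxia at pnd7 with T cell counts leading was 1.44%, and in the stricter set 1.47%, 0.963% and 4.12% in the first 3 libraries.

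The naive log2 ratio of hyperoxia over air at pnd7 (-0.49) became 0.40 without other lineages (members with under 3 such counts) and 0.082 in the stricter set. It was -0.29 with 2 or more counts, -0.62 with Cd4 allowed, -0.36 with T cell counts leading and -0.16 without immature genes. Over age in air (1.02) it was 0.82 with Cd4 allowed, 0.69 without other lineages, 1.14 without immature genes, 1.16 without Tcf7, 0.80 as mean CPM per cell and 0.76 centred on all genes. Over age in hyperoxia (1.61) it was 1.35 with 2 or more counts, 0.36 without other lineages, 1.44 with T cell counts leading, 1.39 without immature genes, 1.08 in the stricter set, 1.88 without Tcf7, 1.41 as mean CPM per cell and 1.32 centred.

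The cytotoxic log2 ratio of hyperoxia over air at pnd7 (0.37) became -0.38 without other lineages and -0.29 without the top cell. It was 0.77 with T cell counts leading, 0.79 without immature genes, 1.21 in the stricter set, 0.022 without Ccl5 and 0.81 as mean CPM per cell. At pnd60 (-0.19) it was -0.87 without other lineages. Over age in air (0.61) it was 0.86 with Cd4 allowed, 0.46 with T cell counts leading, 0.41 without immature genes, 0.21 in the stricter set, 0.18 without Ccl5, 0.82 without the top cell, 0.997 as mean CPM per cell and 0.35 centred. Over age in hyperoxia (0.04) it was 0.23 with Cd4 allowed, 0.23 without other lineages, -0.56 with T cell counts leading, -0.57 without immature genes, -1.28 in the stricter set, 0.88 without the top cell and -0.25 centred.

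The proliferation log2 ratio of hyperoxia over air turned to -2.40 at pnd7 without other lineages. Over age in hyperoxia (-3.45) it was -0.17 without other lineages. Of hyperoxia over air at pnd60 the proliferation ratio turned to 0.31 without other lineages, 0.062 without immature genes, 0.079 in the stricter set, 0.010 without the top cell and 0.22 as mean CPM per cell. The NK receptor ratio over age in hyperoxia (-0.46) turned to 0.27 without the top cell.

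Called genes at pnd7 (437) were 59 without other lineages, 231 with T cell counts leading, 276 without immature genes, 156 in the stricter set, 1557 and 60 at minimums of 10 and 100 counts, and 816 as mean CPM per cell. At pnd60 (246) they were 55 without other lineages, 146 with T cell counts leading, 140 in the stricter set, and 985 and 30 at those minimums. Over age in air (1586) they were 281 without other lineages, and 3021 and 524 at the minimums, and in hyperoxia (2265) 210, 3863 and 803. Only 18, 7, 48 and 51 cells remained without other lineages, so depth limited those values.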

Other observations

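Cells with Cd3, Cd8 and Cd4 counts, outside the class described, were 30 in air and 10 in hyperoxia at pnd7 and 32 and 19 at pnd60. Of these 24, 9, 28 and 13 had counts of Rag1, Rag2, Ptcra, Dntt or Arpp21, genes of developing thymocytes. Among 188 features of T cell receptor V segments the CD8 T cells had 3, 0, 0 and 1 counts, so clonal composition could not be described from these files.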
